A study of Mus musculus with 20 samples.

Results

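The chemokine ligand genes are the genes for the small secreted proteins that direct the movement of white blood cells. They were taken as every symbol made of Ccl, Cxcl, Cx3cl or Xcl, a number and at most 1 letter that stood in the count tables of all 3 days, except Cxcl14. Of 24394 symbols shared by the tables, 38 met this rule, and 21 of these were expressed, which here means a mean of at least 1 CPM (counts per megacount of the library) in at least 1 of the 6 groups. The cells were fibroadipogenic progenitors (FAPs), stromal cells that lie between the fibres of skeletal muscle, sorted from the hindlimb of male C57BL/6J mice. Tumour-bearing mice (KPC) carried KPCY cells, a mouse pancreatic tumour line, of which 2 M in 50 µL had been placed in the pancreas, and control mice had been operated on without tumour cells. The sort kept cells negative for CD31, CD45, α7-integrin and propidium iodide and positive for SCA-1 and for the DNA dye Hoechst. Messenger RNA was sequenced at day 14 (3 control and 4 KPC libraries), day 21 (3 and 3) and day 26 (4 and 3). No other allele, agent or treatment is named for any group, and the tumours came from 1 cell line.

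Chemokines bind G protein-coupled receptors on leukocytes and are held on the tissue matrix, so that a gradient marks the place from which they are made. CC ligands such as CCL2 and CCL7 mainly call monocytes, and CXC ligands of the CXCL1 type call neutrophils. CXCL12, CXCL13 and CCL19 place lymphocytes and progenitor cells in tissue. Stromal cells of muscle are a known source of several of them after injury, and many of the genes are switched on by NF-κB or by interferon.

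The genes lay in clusters. In GENCODE vM21 (GRCm38, the mm10 build of the tables), 12 of the 38 were on chromosome 11 and 11 on chromosome 5. Ccl2 (chr11:82035571-82037453) was followed by Ccl7 (chr11:82045712-82047525) after 8.3 kb, by Ccl11 (chr11:82057823-82062955) after another 10.3 kb, and, past Ccl12, by Ccl8 (chr11:82115185-82116799), all on the plus strand. On chromosome 5, Cxcl1 (chr5:90891241-90893115) and Cxcl2 (chr5:90903871-90905938) lay 10.8 kb apart, while Cxcl13 (chr5:95956951-95961068) stood alone. Cxcl12 (chr6:117168535-117181367) was the sole member on chromosome 6. All of these are protein-coding genes.

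Sequence upstream of 5 members is shown so that genes with like and unlike control elements can be read side by side. Each is the 250 bases before the transcription start, from RefSeq (GRCm38.p6), written 5′ to 3′ on the strand of the gene. They are chr5:90890995-90891244 for Cxcl1, chr5:90903649-90903898 for Cxcl2, chr5:95956689-95956938 for Cxcl13 and chr6:117168285-117168534 for Cxcl12, all on the plus strand, and chr5:92348890-92349139 on the minus strand for Cxcl10. Capitals mark matches to any of 3 motifs searched on both strands, namely the κB consensus, an interferon-response element (GAAA, any 2 bases, GAAA) and TATAAA.
Cxcl1: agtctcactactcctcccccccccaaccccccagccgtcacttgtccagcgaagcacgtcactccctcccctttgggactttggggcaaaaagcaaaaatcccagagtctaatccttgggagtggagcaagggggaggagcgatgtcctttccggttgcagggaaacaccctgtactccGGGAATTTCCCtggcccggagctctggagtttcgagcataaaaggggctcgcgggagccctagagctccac
Cxcl2: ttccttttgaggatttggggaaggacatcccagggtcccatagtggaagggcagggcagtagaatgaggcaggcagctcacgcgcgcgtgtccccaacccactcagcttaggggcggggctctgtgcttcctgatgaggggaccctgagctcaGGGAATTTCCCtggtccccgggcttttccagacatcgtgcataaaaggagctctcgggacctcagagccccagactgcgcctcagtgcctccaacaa
Cxcl10: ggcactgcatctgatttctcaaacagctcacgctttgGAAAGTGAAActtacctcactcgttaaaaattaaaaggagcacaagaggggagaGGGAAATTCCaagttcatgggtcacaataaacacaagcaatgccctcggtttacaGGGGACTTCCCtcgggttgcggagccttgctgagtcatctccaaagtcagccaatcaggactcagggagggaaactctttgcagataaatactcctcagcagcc
Cxcl13: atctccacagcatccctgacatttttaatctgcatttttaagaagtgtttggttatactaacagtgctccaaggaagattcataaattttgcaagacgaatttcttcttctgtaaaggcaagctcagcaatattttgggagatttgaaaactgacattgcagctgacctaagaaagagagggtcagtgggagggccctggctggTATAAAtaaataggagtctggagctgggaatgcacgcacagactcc
Cxcl12: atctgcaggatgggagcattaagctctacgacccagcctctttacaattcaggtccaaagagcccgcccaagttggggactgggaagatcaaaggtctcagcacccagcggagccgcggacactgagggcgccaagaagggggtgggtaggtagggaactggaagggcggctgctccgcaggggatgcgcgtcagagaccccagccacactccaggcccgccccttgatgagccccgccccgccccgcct
Cxcl1 and Cxcl2 held the same 11 bases, GGGAATTTCCC, beginning 71 and 97 bases before the RefSeq start. Both stretches run past the GENCODE starts given above, that of Cxcl2 further, so these distances depend on the annotation. The run GGGAATTTCCC matches the κB consensus from its first and again from its second base, so the matches overlap. Cxcl10 held κB matches beginning 159, 104 and 103 bases before the start, the last pair overlapping, and GAAAGTGAAA 213 bases before it. In Cxcl13 the match was TATAAA, 46 bases before the start, and in Cxcl12 none of the 3 motifs occurred. The table held 26 of the 38 members, 14 of them expressed, and lacked Ccl2, Ccl7 and Ccl11. A κB match was found in 4 of these 14 (Ccl9, Cxcl1, Cxcl2 and Cxcl10) and in 7.3% of all 32851 promoters, the interferon-response element in 2 (Ccl19 and Cxcl10) and in 3.0%, and TATAAA in 6 (Ccl8, Ccl9, Ccl25, Cxcl9, Cxcl13 and Cx3cl1) and in 12.4%. A member was counted if any of its promoters held a match, whereas the percentages are shares of promoters. Over all 26 members the counts were 7, 2 and 10 for the 3 motifs in this order. A match describes letters and does not show that a factor binds.

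Total counts ran from 12.9 to 26.4 megacounts per library. The progenitor genes Ly6a, which encodes SCA-1, and Pdgfra were present in all libraries, Pdgfra at 1194 to 1672 CPM and Ly6a at 796 to 1465 CPM outside the KPC group of day 26, where it lay at 585, 525 and 1202 CPM in replicates 1 to 3. Markers of cells that the sort was set to remove were higher in some KPC libraries. Pecam1, which encodes CD31, lay at 4.52 to 24.7 CPM in controls and 12.6 to 241 CPM in KPC, and Ptprc, which encodes CD45, at 0.0401 to 1.00 and 0.0486 to 5.73 CPM. Summed over 12 macrophage and monocyte markers, the level was 16.6 to 22.5, 16.7 to 29.0 and 18.9 to 30.1 CPM in controls of days 14, 21 and 26, 23.3 to 52.9 CPM in KPC at day 14, 101, 40.8 and 23.6 CPM at day 21 and 462, 45.4 and 24.9 CPM at day 26. KPC replicate 1 of day 26 therefore stands apart. For the day 26 comparison, log2 fold changes of ligands that rest on it are given with and without it. For differences of the KPC effect between days, only the count of called members is given without it. The library codes in the labels separate KPC from control fully at days 14 and 21, and their meaning is not given, so code and group cannot be told apart there. In sorted bulk samples, fewer cells of a type and less RNA per cell cannot be told apart either.

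In control progenitors Ccl11, the eosinophil chemokine eotaxin, had the highest level per exon length. Over the 10 controls it reached 616 ± 80.6 CPM per kb of exon (mean ± SD), and its lowest library lay above the highest library of each other member on that scale. Cxcl1, a neutrophil chemokine, followed at 73.9 ± 38.4, Ccl7 at 45.9 ± 27.2, Cxcl13 at 42.6 ± 21.5, Ccl2 at 37.6 ± 19.2 and Cxcl12 at 34.5 ± 4.70 CPM per kb. The ranges of these 5 overlapped, so their order is not fixed by the controls. Ccl8 (10.3 ± 3.88), Cxcl16 (8.42 ± 1.16), Cxcl10 (6.69 ± 5.03) and Ccl19 (4.81 ± 3.18) came next, each overlapping its neighbour in this order, and the remaining members stayed below 2 CPM per kb on average.

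The comparison at day 14 asks which ligands differ early after tumour cell injection. Ccl2, Ccl7 and Cxcl13 fell in KPC progenitors, with group means of 59.2 and 16.7 CPM for Ccl2, 50.0 and 19.3 CPM for Ccl7 and 76.2 and 33.0 CPM for Cxcl13 in control and KPC. A gene is called when its adjusted p (edgeR quasi-likelihood test, Benjamini-Hochberg over all genes tested) is under 0.05, and no ligand was called higher. Of the 21 expressed members 17 passed the filter on low counts, and Ccl3, Ccl4, Ccl24 and Cxcl5 did not. Of the 17, 3 were called lower and 0 higher, where 1.12% of all genes tested were called (0.435% lower and 0.682% higher). The median log2 fold change of the 17 was -0.16, beside 0.01 over all genes.

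Ccl2, the main monocyte attractant, lay at 75.0, 56.8 and 45.7 CPM in the 3 controls and at 18.2, 19.1, 11.5 and 18.2 CPM in the 4 KPC libraries of day 14. Ccl7, a close relative that also calls monocytes, lay at 57.1, 36.9 and 55.8 CPM in controls and 21.5, 21.6, 11.9 and 22.2 CPM in KPC. Neither gene's groups overlapped, and KPC replicate 3 was the lowest library for both. The log2 fold change (± SE here and below) was -1.80 ± 0.19 for Ccl2, with an adjusted p of 0.00196, and -1.35 ± 0.21 for Ccl7, with an adjusted p of 0.0156. Ccl7 was not called without control replicate 3 (adjusted p 0.0686), and a fit of all 20 libraries together called 0 members at day 14. The third tested member of the monocyte group, Ccl8, held 8.45, 6.00 and 6.64 CPM in controls and 6.45, 3.26, 2.91 and 4.70 CPM in KPC and did not reach the threshold (log2 -0.68 ± 0.29, adjusted p 0.3). Ccl11 lay at 784, 662 and 756 CPM in controls and 679, 589, 552 and 653 CPM in KPC, with overlapping groups and no call (log2 -0.23 ± 0.11, adjusted p 0.353).

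Cxcl13, which attracts B cells to lymphoid follicles, lay at 73.1, 75.8 and 79.6 CPM in controls and 40.3, 31.6, 27.6 and 32.6 CPM in KPC. Its groups stood well apart, with little spread within each (log2 -1.19 ± 0.12, adjusted p 0.00108). Cxcl12, which holds haematopoietic and lymphoid cells through CXCR4, lay at 313, 346 and 332 CPM in controls and 411, 402, 354 and 459.6 CPM in KPC, without overlap but not called (log2 0.31 ± 0.11, adjusted p 0.197).

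For the neutrophil chemokine Cxcl2 the control libraries had 3.42, 3.93 and 2.04 CPM and the KPC libraries 2.5, 0.494, 0.373 and 1.83 CPM (log2 -1.22 ± 0.56, adjusted p 0.343). Cxcl1 had 216, 170.4 and 162 CPM in controls and 94.4, 80.8, 38.9 and 162 CPM in KPC, so that KPC replicate 4 touched the control range. The interferon-inducible Cxcl10, a ligand of CXCR3 on T cells, had 13.5, 17.4 and 15.1 CPM in controls and 9.08, 6.38, 3.73 and 11.4 CPM in KPC (log2 -0.97 ± 0.29, adjusted p 0.125). None of the 3 was called, although every KPC library was below every control for Cxcl10. Ccl6 and Ccl9, ligands of CCR1 that macrophages make in quantity, were at 2.32, 3.26, 1.79 and 2.15 CPM (Ccl6) and 1.91, 1.48, 0.82 and 1.39 CPM (Ccl9) in KPC and at 0.712 to 0.837 CPM (Ccl6) and 0.95, 0.467 and 0.314 CPM (Ccl9) in controls (log2 1.66 ± 0.44, adjusted p 0.0899 and log2 1.28 ± 0.57, adjusted p 0.329). Neither was called, and the macrophage markers given above were higher in KPC in the same libraries (0 of 11 tested called, 10 with a positive fold change, and 3 higher and 0 lower at an unadjusted p under 0.05, where 7.8% of all genes were higher and 6.47% lower). Their part in the result was not tested.

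Neither membrane-bound ligand was called at day 14. Cx3cl1 lay at 5.22, 2.87 and 5.44 CPM in controls and 5.95, 6.57, 4.47 and 6.25 CPM in KPC (log2 0.38 ± 0.28, adjusted p 0.594). Cxcl16 lay at 23.7, 22.1 and 26.8 CPM in controls and 30.9, 32.6, 28.5 and 22.4 CPM in KPC (log2 0.25 ± 0.15, adjusted p 0.487).

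Markers of other cell types moved in the same day 14 libraries. Of 12 endothelial markers 2 were called higher and 0 lower in KPC, namely Egfl7 (log2 1.87 ± 0.26, adjusted p 0.00733) and Cldn5 (log2 2.44 ± 0.39, adjusted p 0.0156), with a median log2 fold change of 1.65. The mural marker Notch3 (log2 0.96 ± 0.21, adjusted p 0.0418, 1 of 5 called) and Itga7 (log2 1.71 ± 0.34, adjusted p 0.0327, 1 of 2 tested satellite cell markers), which encodes the α7-integrin used in the sort, were called higher too. Of 8 progenitor identity genes edgeR called 0 (2 higher and 0 lower at an unadjusted p under 0.05, where 7.8% of all genes were higher and 6.47% lower). The part of these markers in the 3 falls was not tested.

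**Figure D1:**
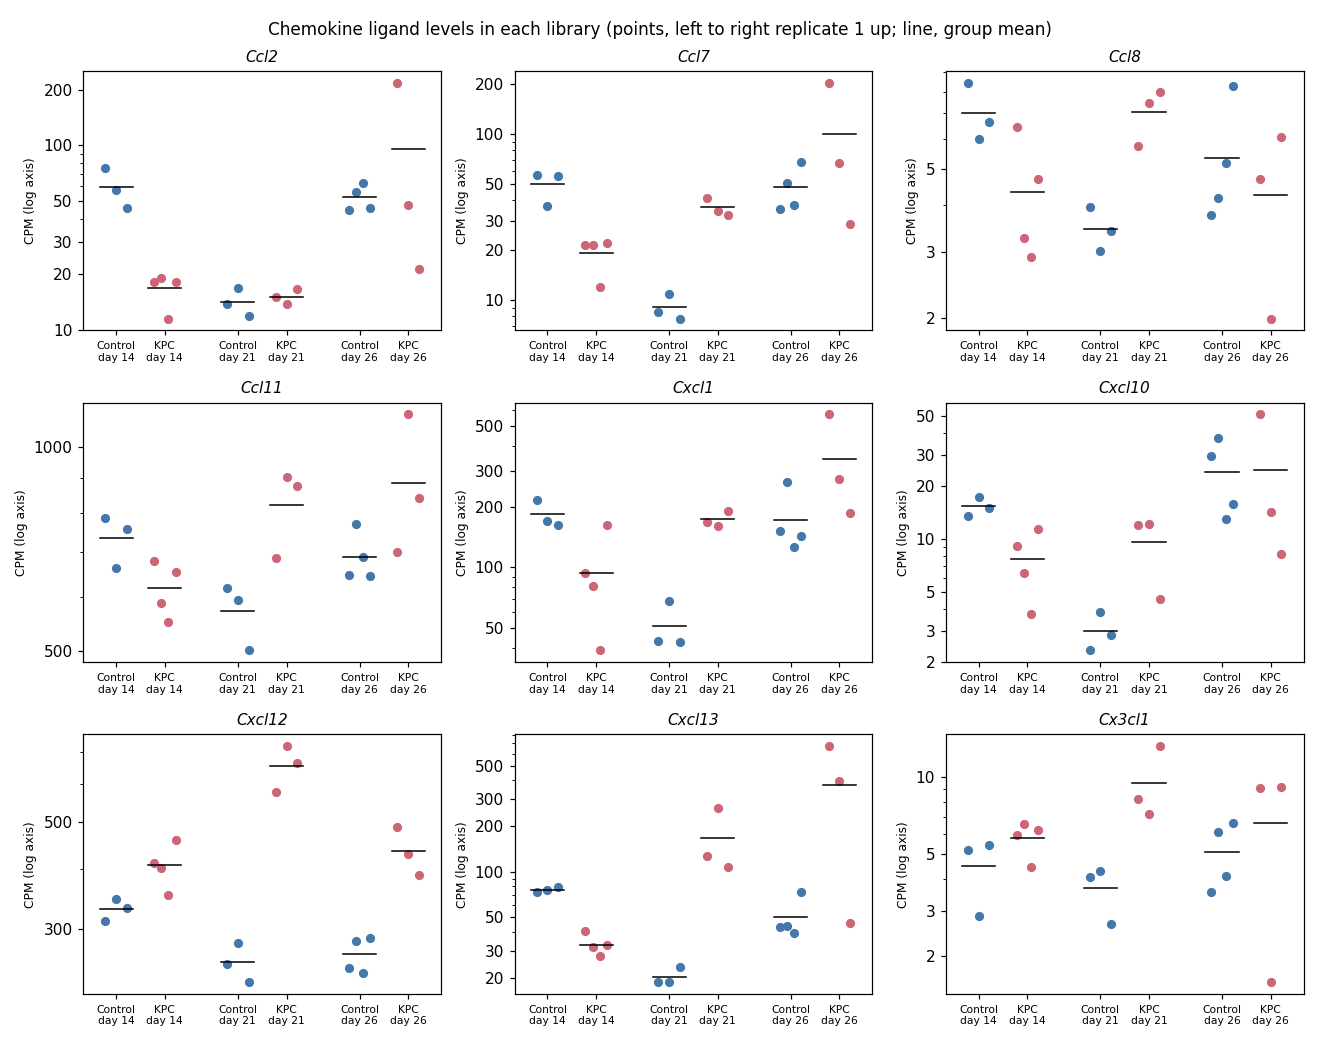
Level of 9 ligand genes in each of the 20 libraries, in CPM on a log axis, by group and day; points are libraries and lines are group means. Ccl2, Ccl7 and Cxcl13 sit lower in KPC at day 14, the day 21 controls sit low for most genes, and KPC replicate 1 of day 26 (the leftmost point of its group) lies highest for Ccl2, Ccl7, Cxcl1, Cxcl10 and Cxcl13.

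At day 21 ligands were called higher rather than lower in KPC. Against the controls of that day at least 1 ligand rose in every class tested except that of gut and skin homing, among them Ccl7, Cxcl1, Cxcl12 and Cxcl13, while Ccl2 was not called. Of 17 members tested, 9 were called higher and 0 lower, where 12.5% of all genes tested were called (6.38% higher and 6.11% lower). The median log2 fold change of the 17 was 1.34, beside 0.01 over all genes. Without overlap between the groups, 10 members were higher and 1 lower, where 33.1% of all genes did not overlap.

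Among monocyte chemokines, Ccl7 lay at 8.47, 10.9 and 7.74 CPM in controls and 41.4, 34.5 and 32.7 CPM in KPC. Its neighbour Ccl2 lay at 13.8, 16.8 and 11.9 CPM in controls and 15, 13.8 and 16.5 CPM in KPC, with overlapping groups. Ccl7 rose (log2 2.00 ± 0.18, adjusted p 4.81e-05), whereas the change in Ccl2 was close to 0 with a narrow error (log2 0.09 ± 0.19, adjusted p 0.797). Ccl8 rose from 3.94, 3.02 and 3.41 CPM to 5.72, 7.45 and 7.97 CPM (log2 1.02 ± 0.29, adjusted p 0.0374). Ccl11 lay at 620.3, 595 and 501 CPM in controls and 685, 901 and 874 CPM in KPC (log2 0.51 ± 0.13, adjusted p 0.0254), the smallest of the 9 rises on the log2 scale.

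In the neutrophil group, Cxcl1 lay at 43.2, 68.5 and 43.0 CPM in controls and 168, 159 and 189.9 CPM in KPC, so the lowest KPC library was above the highest control by a wide margin (log2 1.74 ± 0.18, adjusted p 0.000225). Cxcl2 lay at 0.0788, 0.0472 and 1.364 CPM in controls and 4.44, 2.48 and 0.729 CPM in KPC and its groups overlapped. Cxcl10 lay at 2.32, 3.87 and 2.85 CPM in controls and 11.9, 12.2 and 4.57 CPM in KPC, with KPC replicate 3 close to the controls (log2 1.66 ± 0.38, adjusted p 0.0165). Cxcl9, a second interferon-inducible ligand of CXCR3, ranged over 1.02 to 4.95 CPM in controls and 2.93 to 5.36 CPM in KPC and was not called.

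Both large homeostatic ligands rose. Cxcl12 lay at 255, 282 and 233 CPM in controls and 576, 718 and 664 CPM in KPC (log2 1.34 ± 0.12, adjusted p 4.82e-05). Cxcl13 lay at 18.7, 18.6 and 23.4 CPM in controls and 127, 264 and 107 CPM in KPC, the largest called rise in the family at this day (log2 3.03 ± 0.38, adjusted p 0.00541). Ccl19, which calls dendritic cells and naive T cells through CCR7, was even in controls and uneven in KPC (5.63, 5.47 and 5.66 CPM in controls, 13, 13.4 and 1.60 CPM in KPC) and was not called.

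Ccl9 rose from 0.827, 0.519 and 0.281 to 4.18, 5.35 and 1.21 CPM (log2 2.70 ± 0.68, adjusted p 0.0232), and Ccl6 lay at 1.5, 0.472 and 0.12 CPM in controls and 12.5, 3.88 and 1.75 CPM in KPC without a call (log2 3.10 ± 0.96, adjusted p 0.0753). For both, KPC replicate 3 was the lowest KPC library, as it was for the summed macrophage markers. Of 10 tested macrophage markers 2 were called higher, Fcgr3 (log2 2.78 ± 0.69, adjusted p 0.0224) and Cd14 (log2 0.99 ± 0.26, adjusted p 0.0291), and their part in the result was not tested. Cx3cl1, the membrane-bound fractalkine that binds CX3CR1, lay at 4.10, 4.29 and 2.69 CPM in controls and 8.20, 7.19 and 13.2 CPM in KPC and rose (log2 1.37 ± 0.32, adjusted p 0.016). It was highest in KPC replicate 3, the library with the lowest Pecam1 of its group (38.4 CPM, against 144 and 86.0 CPM). The sum of the 12 endothelial markers was also lowest of its group in that library (542 CPM). At day 26 this sum was lowest in KPC replicate 2 (357 CPM), which also held the least Cx3cl1 of its group (1.59 CPM). Replicates 1 and 3 of that group had nearly equal Cx3cl1 (9.08 and 9.18 CPM), while their endothelial sums differed (1266 and 438 CPM). The part of endothelial cells in the level of Cx3cl1 was not tested. The other membrane-bound ligand, Cxcl16, lay at 25.5, 21.8 and 20.3 CPM in controls and 19.4, 17.1 and 16.5 CPM in KPC, slightly lower in KPC without overlap and not called (log2 -0.35 ± 0.16, adjusted p 0.173). Ccl25 and Ccl27a, which serve gut and skin homing, stayed at 0.722 to 2.5 CPM and 2.42 to 4.61 CPM and were not called.

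Progenitor and endothelial markers also differed between the same groups. Of 8 progenitor identity genes 3 fell in KPC at day 21, namely Cd34 (log2 -1.14 ± 0.15, adjusted p 0.000541) and the collagen genes Col1a1 (log2 -1.24 ± 0.18, adjusted p 0.00142) and Col3a1 (log2 -1.76 ± 0.31, adjusted p 0.0107), while Dcn, the gene for the matrix protein decorin, rose (log2 0.49 ± 0.14, adjusted p 0.0403). Ly6a, Pdgfra, Pdgfrb and Lum were not called. The 8 genes summed to 54167, 50264 and 56169 CPM in controls and 36866, 33636 and 35767 CPM in KPC, without overlap. Ly6a and Pdgfra, at the levels given above, made up a small part of this sum. Of 12 endothelial markers 7 were called higher, with Cldn5 (log2 2.39 ± 0.22, adjusted p 6.22e-05), Flt1 (log2 1.88 ± 0.32, adjusted p 0.00829), Esam (log2 2.18 ± 0.43, adjusted p 0.0166) and Tie1 (log2 1.89 ± 0.42, adjusted p 0.0252) first by p and Pecam1 among the rest (log2 2.30 ± 0.51, adjusted p 0.0463). Tek, a receptor of angiopoietins on this list, fell (log2 -0.47 ± 0.12, adjusted p 0.0271). The median of the 12 was 1.89, and they summed to 596, 571 and 607 CPM in controls and 1110.2, 705 and 542 CPM in KPC, where replicate 1 was the highest and replicate 3 lay below the controls. Such a sum is set mostly by its most abundant genes. Pecam1 in KPC replicate 3, given above, lay above every control. Of the lymphatic endothelial markers Flt4 rose (log2 2.71 ± 0.48, adjusted p 0.00415, 1 of 3 called), and of the mural markers Cspg4 fell (log2 -1.79 ± 0.33, adjusted p 0.0191, 1 of 5 called). The part of these markers in the ligand levels was not tested.

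The calls for Ccl7, Cxcl1, Cxcl12 and Cxcl13 at day 21 held in each alternative run. Leaving out single libraries ended the calls of Ccl8 and Ccl11 (any of the 3 controls, KPC replicate 2 or 3), Ccl9 (any control, KPC replicate 2), Cxcl10 (control replicate 1 or 3, KPC replicate 2) and Cx3cl1 (control replicate 1 or 3, KPC replicate 3), with adjusted p up to 0.141. The fit of all 20 libraries ended the calls of the same 5 genes.

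**Figure D2:**
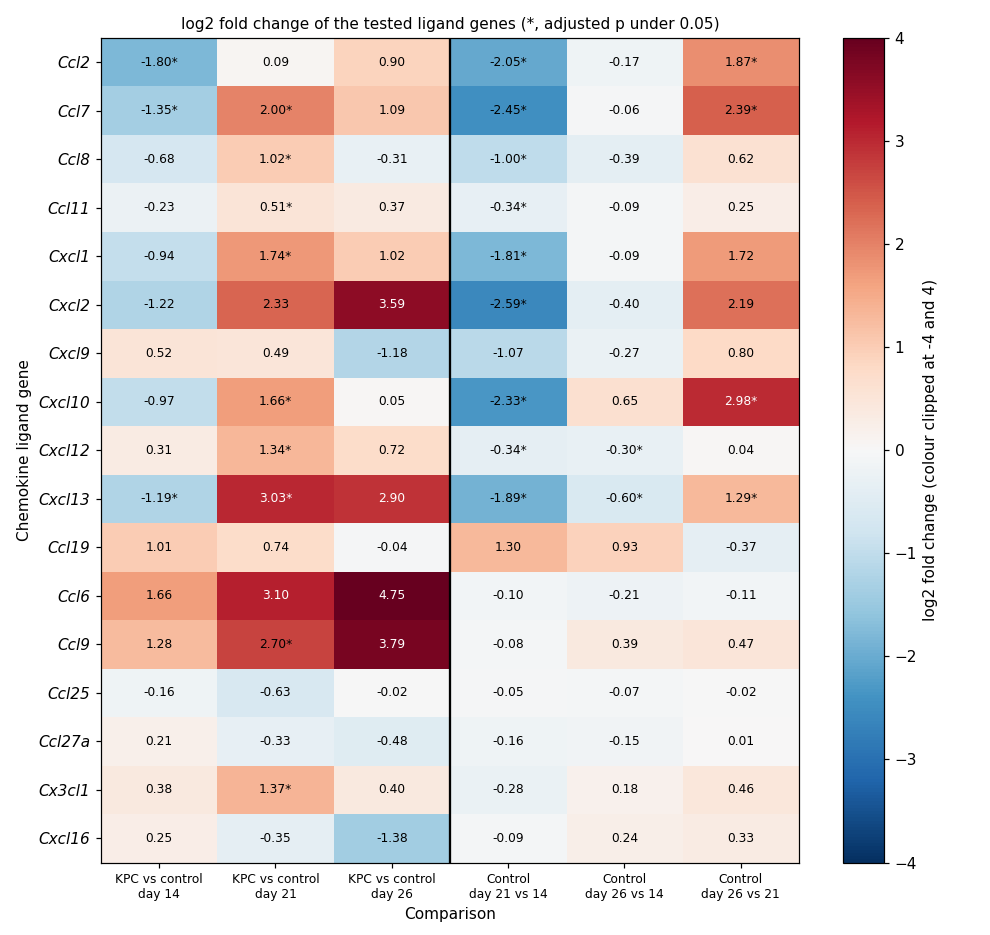
log2 fold change of the 17 tested ligand genes in 6 comparisons, KPC against control at each day on the left of the line and controls of different days on the right; an asterisk marks an adjusted p under 0.05 in edgeR. Read across a row, Ccl2 changes by -1.80, 0.09 and 0.90 in KPC at days 14, 21 and 26, while its control level changes by -2.05 from day 14 to day 21 and by 1.87 from day 21 to day 26.

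The controls themselves differed between days. Against controls of day 14, controls of day 21 had lower Ccl2, Ccl7, Ccl8, Ccl11, Cxcl1, Cxcl2, Cxcl10, Cxcl12 and Cxcl13. That is 9 of 17 tested members lower and 0 higher, where 23.4% of all genes tested were called (13.5% lower and 9.92% higher), and the median was -0.34 beside 0.02 over all genes. Ccl7 had the largest fall among the members that every alternative kept (log2 -2.45 ± 0.27, adjusted p 0.000148), followed by Cxcl10 (log2 -2.33 ± 0.41, adjusted p 0.00261), Ccl2 (log2 -2.05 ± 0.19, adjusted p 1.65e-05) and Cxcl1 (log2 -1.81 ± 0.31, adjusted p 0.00337). Cxcl13 fell by 1.89 on the log2 scale (adjusted p 4.56e-05) and Cxcl2 by 2.59 (adjusted p 0.0436). The falls of Ccl8 (-1.0 ± 0.28), Ccl11 (-0.34 ± 0.11) and Cxcl12 (-0.34 ± 0.10) were smaller. Leaving out single controls ended the calls of Ccl8 (day 14 replicate 1, day 21 replicate 2), Cxcl12 (day 14 replicates 2 and 3, day 21 replicates 1 and 3) and Ccl11 (day 14 replicates 1 and 3, day 21 replicates 2 and 3, day 26 replicate 1). The call of Cxcl2 ended without any control of day 14, replicate 1 or 2 of day 21, or replicate 1 or 4 of day 26. The fit of all 20 libraries called 4 of the 9 and ended the calls of Ccl8, Ccl11, Cxcl2, Cxcl12 and Cxcl13. Of the marker lists, controls of day 21 had lower Lum (-0.87 ± 0.15) and higher Col1a1 (0.58 ± 0.16), Tek (0.38 ± 0.11), Cspg4 (0.99 ± 0.23) and Itga7 (0.95 ± 0.29) than those of day 14, each the 1 gene of its list called in that direction.

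At day 26 the control means of Ccl2, Ccl7, Cxcl1 and Cxcl10 lay closer to those of day 14 than to those of day 21. Ccl2 lay at 44.7, 55.4, 62.4 and 45.8 CPM in the 4 controls, Ccl7 at 35.3, 50.5, 37.2 and 68.1 CPM and Cxcl10 at 29.4, 37.4, 13 and 15.7 CPM, all above each control of day 21. Against day 21 the 4 called members were all higher, where 0.478% of all genes were called (0.388% higher and 0.0896% lower). They were Ccl2 (log2 1.87 ± 0.19, adjusted p 0.000453), Ccl7 (log2 2.39 ± 0.26, adjusted p 0.00494), Cxcl10 (log2 2.98 ± 0.39, adjusted p 0.0118) and Cxcl13 (log2 1.29 ± 0.19, adjusted p 0.0118). Cxcl1 lay at 151, 263, 126 and 143 CPM and just missed the threshold (log2 1.72 ± 0.29, adjusted p 0.0518). The count fell to 1 without control replicate 1 of day 21 and to 2 without replicate 3, Ccl7 and Cxcl10 being lost in both, and Cxcl13 was not called without any 1 of the 3 day 21 controls. Against day 14, 2 members were lower at day 26, Cxcl13 (log2 -0.60 ± 0.18, adjusted p 0.0283) and Cxcl12 (log2 -0.30 ± 0.10, adjusted p 0.0333), where 22.3% of all genes were called (12.6% lower and 9.7% higher), and the median was -0.09 beside 0.0049 over all genes. This count was 0 or 1 when any 1 of the day 14 controls, or replicate 1, 2 or 3 of day 26, was left out. Of the marker lists, Lum was lower (-0.56 ± 0.13) and Cd34 higher (0.34 ± 0.09) at day 26 than at day 14. In a fit of all 20 libraries 0 members were called in either comparison with day 26. The KPC comparison at day 21 and the control comparisons with day 21 share those 3 control libraries. Day, library code and count table go together in these comparisons and cannot be told apart.

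Because the day 21 controls were low, the day 21 KPC libraries were also set beside the controls of the other days, as a description with no test. The 9 genes counted here had been called higher in these same KPC libraries. The share of all genes that lie so was not computed, so the counts cannot be judged against it. All 3 KPC libraries of day 21 lay above every control of days 14 and 26 for 4 of the 9 genes that rose, namely Ccl9, Cxcl12, Cxcl13 and Cx3cl1. Cxcl12 for instance lay at 576 to 718 CPM in KPC at day 21 and at 233 to 346 CPM over the 10 controls. For 4 others, Ccl7, Ccl8, Ccl11 and Cxcl1, the KPC libraries overlapped the controls of day 14 and of day 26. Cxcl1 lay at 159 to 189.9 CPM in these KPC libraries, and its controls held 162 to 216 CPM at day 14 and 126 to 263 CPM at day 26. Cxcl10 lay below all controls of both other days, and so did Ccl2, which lay at 13.8 to 16.5 CPM in KPC at day 21 and at 44.7 to 75.0 CPM in those controls.

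Ccl2 and Ccl7, although neighbours, did not move in step at day 21. The ratio of Ccl7 to Ccl2 counts within a library was 0.62, 0.65 and 0.65 in day 21 controls and 2.76, 2.5 and 1.98 in day 21 KPC libraries. In the KPC libraries of day 14 it was 1.18, 1.13, 1.04 and 1.22, in those of day 26 it was 0.94, 1.40 and 1.359, and in the controls of both days it ran from 0.60 to 1.49. The day 21 KPC group stood above every other library. The ratio was chosen after the values were seen, and so it is given with no test.

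**Figure D3:**
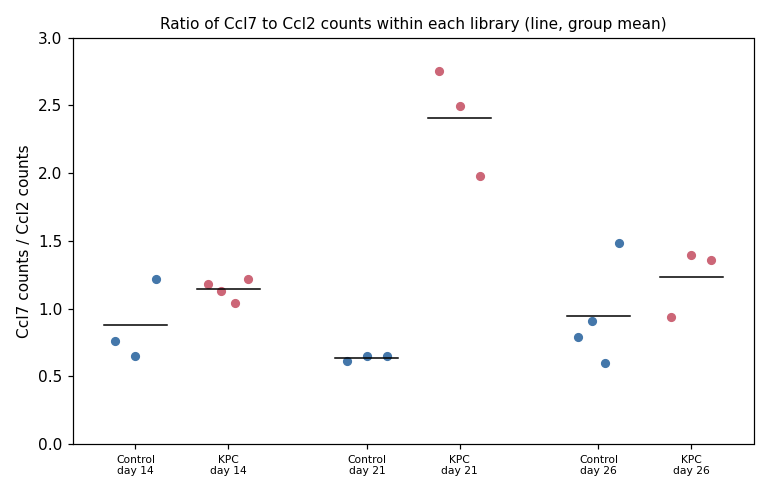
Ratio of Ccl7 to Ccl2 counts in each library (vertical axis, no unit), by group and day, with lines at the group means. The 3 KPC libraries of day 21 lie between 1.98 and 2.76, above all other libraries, which reach at most 1.49.

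At day 26 no ligand was called. The KPC libraries differed widely among themselves, with replicate 1 very high for many ligands, replicate 2 intermediate for several and replicate 3 often within the control range. By edgeR 0 of 17 tested members were called, and so were 0% of all genes tested. At an unadjusted p under 0.05, 6 members were higher and 1 was lower, where 20.3% of all genes were higher and 13.9% lower, and the median of the 17 was 0.40 beside -0.0029 over all genes. DESeq2 called 4 members (Cxcl12, Cxcl13 and Ccl24 higher, Cxcl16 lower), and limma-voom with sample weights called 4 (Ccl7, Cxcl12 and Cxcl13 higher, Cxcl16 lower). Without KPC replicate 3 edgeR called 10, 8 higher and 2 lower, but that choice leaves out the KPC library with the lowest Ccl2, Ccl7, Cxcl1, Cxcl12 and Cxcl13 and so selects on the outcome. Among the 3 control and 2 KPC libraries whose codes share a leading number, 7 were called, 6 higher and 1 lower. That set also leaves out KPC replicate 3 and keeps replicate 1, so the same limit applies to it. The fit of all 20 libraries also called 7, namely Ccl3, Ccl6, Ccl9, Cxcl2, Cxcl12 and Cxcl13 higher and Cxcl16 lower. That fit takes the spread of a gene from all groups together and not from day 26 alone.

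Cxcl12 lay at 249.9, 284, 243 and 287 CPM in controls and 489, 430.4 and 389 CPM in KPC (log2 0.72 ± 0.16, adjusted p 0.062). Cxcl16 lay at 26.9, 27.6, 27.3 and 32.1 CPM in controls and 7.35, 3.47 and 21.5 CPM in KPC (log2 -1.38 ± 0.53, adjusted p 0.117). These were the 2 of 17 members whose groups did not overlap, the first higher and the second lower in KPC, where 29.1% of all genes did not overlap. Without KPC replicate 1 the log2 values were 0.62 for Cxcl12 and -1.17 for Cxcl16.

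Cxcl13 ranged widely, at 43.2, 44.0, 39.4 and 73.7 CPM in controls and 671, 397 and 45.6 CPM in KPC (log2 2.90 ± 0.71, adjusted p 0.0665). KPC replicates 1 and 2 were far above the controls, and replicate 3 was among them. Without replicate 1 its log2 value was 2.13 (adjusted p 0.158). Ccl2 lay at 218, 47.7 and 21.2 CPM, Ccl7 at 205, 66.7 and 28.9 CPM and Cxcl1 at 570.3, 274 and 187 CPM in KPC. Replicate 1 was the high library for all 3, and without it the log2 fold change was -0.60 for Ccl2, -0.00446 for Ccl7 and 0.43 for Cxcl1. Ccl11 lay at 699, 1116 and 840.3 CPM in KPC and 648, 769.6, 689 and 645 CPM in controls, and here replicate 2 was the highest. Cxcl10 lay at 50.9, 14.2 and 8.23 CPM in KPC, beside 13 to 37.4 CPM in controls. Ccl8 lay at 3.76, 4.17, 5.18 and 8.27 CPM in controls and 4.68, 2.00 and 6.06 CPM in KPC, and Cx3cl1 at 3.58, 6.11, 4.12 and 6.62 CPM in controls and 9.08, 1.59 and 9.18 CPM in KPC. The groups of these 3 overlapped.

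Several ligands that were scarce elsewhere were far higher in KPC replicate 1 of day 26 than in any other library. Cxcl2 lay at 78.2, 3.82 and 1.56 CPM in the 3 KPC libraries and at 2.55, 3.53, 0.943 and 2.47 CPM in controls. Ccl6 lay at 50.3, 0.529 and 1.56 CPM in KPC. Ccl9 lay at 29.5, 1.35 and 0.404 CPM in KPC and 0.788, 0.696, 0.471 and 1.11 CPM in controls. Without replicate 1 their log2 fold changes were 0.18 for Cxcl2, 0.70 for Ccl6 and 0.18 for Ccl9, from 3.59, 4.75 and 3.79 with it. The expressed members that failed the filter on low counts reached a group mean of 1 CPM in KPC of day 26 alone, through replicate 1. Their height in that library therefore follows from the expression threshold. It held 7.46 CPM of the neutrophil chemokine Cxcl5, 9.41 and 6.51 CPM of Ccl3 and Ccl4, and 3.17 CPM of Ccl24, an eosinophil chemokine. In the other 19 libraries Ccl3 stayed at or below 0.764 CPM, Ccl24 at or below 0.928 CPM, Ccl4 at or below 1.91 CPM (KPC replicate 1 of day 21) and Cxcl5 at or below 1.99 CPM (control replicate 1 of day 14). The same library held the highest summed macrophage markers given above, 5.73 CPM of Ptprc, 4.62 CPM of Adgre1, which encodes the macrophage antigen F4/80, and 72.0, 4.35 and 6.11 CPM of 4 summed neutrophil markers in replicates 1 to 3. Of the neutrophil markers, S100a8 was at 0 in replicate 2. The 12 endothelial markers summed to 1266, 357 and 438 CPM in KPC replicates 1 to 3 and 396 to 578 CPM in controls, and the 8 progenitor identity genes to 18684, 26867 and 38727 CPM and 44402 to 57397 CPM, so that replicate 1 was the highest for the first sum and the lowest for the second. Each sum was set mostly by its most abundant genes, and Ly6a and Pdgfra made up a small part of the second. By edgeR 0 of the markers on these lists were called. At an unadjusted p under 0.05, 7 endothelial markers were higher and 1 lower, 9 of 12 macrophage markers were higher, and 2 progenitor identity genes were lower. Of all genes, 20.3% were higher and 13.9% lower at that threshold. Their part in these ligand levels was not tested.

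**Figure D4:**
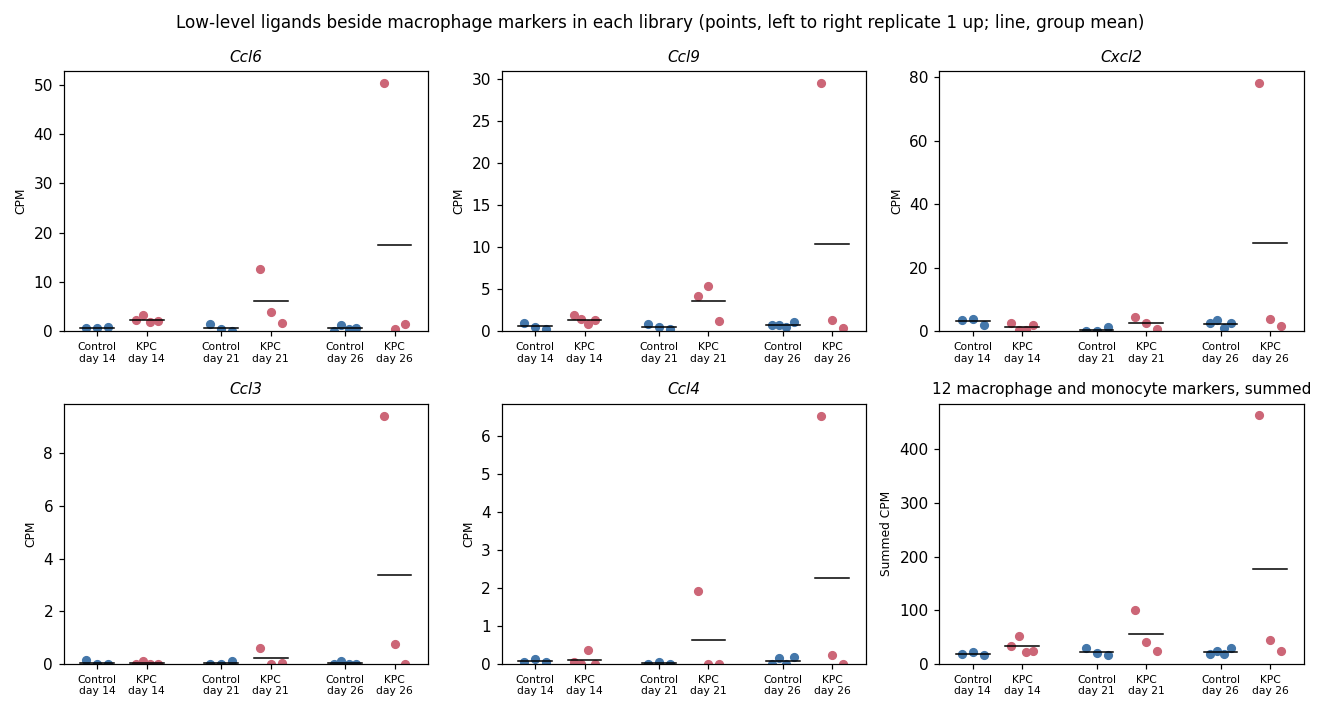
Level in each library of 5 ligands that were low in most libraries (CPM), with the sum of 12 macrophage and monocyte markers in the last panel; lines are group means. KPC replicate 1 of day 26 carries the highest value in all 6 panels, for example 50.3 CPM for Ccl6 and 462 CPM for the marker sum. Ccl3 and Ccl4 passed the expression threshold through this library alone.

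Whether the KPC effect itself differed between days was tested in 1 fit of all 20 libraries, in which each day kept its own controls. This fit estimates the spread of a gene over all 6 groups together, although the KPC libraries of day 26 differed widely among themselves. Fitted alone, day 26 had 0% of all genes called, so calls that involve day 26 lean on the spread of the other groups as well. From day 14 to day 21 the effect rose for Ccl7 (log2 3.37 ± 0.67, adjusted p 0.0319), Cxcl13 (log2 4.24 ± 0.81, adjusted p 0.0268) and Cxcl12 (log2 1.05 ± 0.19, adjusted p 0.00986), which makes 3 of 20 tested members higher and 0 lower, where 0.644% of all genes were called (0.537% higher). Cxcl1 just missed the threshold (log2 2.70 ± 0.60, adjusted p 0.0511), and Ccl2 was not called (log2 1.92 ± 0.74, adjusted p 0.235). The count was 1 when any control of day 21, KPC replicate 2 of day 21, control replicate 1 or 3 of day 14, or KPC replicate 2 or 3 of day 14 was left out, and 6 and 8 without KPC replicates 1 and 3 of day 26. From day 14 to day 26 it was higher for Ccl2 (log2 2.70 ± 0.70, adjusted p 0.0228), Ccl7 (log2 2.44 ± 0.63, adjusted p 0.0223), Cxcl1 (log2 1.97 ± 0.57, adjusted p 0.0328) and Cxcl13 (log2 4.10 ± 0.76, adjusted p 0.00931) and lower for Cxcl16 (log2 -1.63 ± 0.50, adjusted p 0.0391), where 14.3% of all genes were called (9.6% higher and 4.72% lower). That count was 3 without KPC replicate 1 of day 26, 12 without replicate 3, 1 without control replicate 1 of day 14, and 3 without KPC replicate 1 or 2 of day 14 or without control replicate 1, 3 or 4 of day 26. Without KPC replicate 1 of day 26, the day 26 effects of Ccl2 and Ccl7 were no longer positive, as given above. Between days 21 and 26 edgeR called 0 of 20 members, as it did 0% of all genes, and DESeq2 called 0. At an unadjusted p under 0.05, 0 members were higher and 2 lower in that contrast, where 7.53% of all genes were higher and 5.37% lower. Contrasts that share a day share its libraries, so they are not independent of each other.

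The other 17 of the 38 members were below the expression threshold in all groups. For 7 of them, Ccl1, Ccl21a, Ccl21b, Ccl21c, Ccl26, Ccl27b and Cxcl15, no read was counted in any library, which allows up to 0.114 CPM in the deepest library and 0.232 CPM in the shallowest (3 counts, counting error only). Ccl21a, Ccl21b and Ccl27b share much of their sequence with close copies, and Ccl27a with Ccl27b, so their counts depend on how such reads were treated. The other 10 had their highest group mean at 0.596 CPM (Ccl28), 0.539 CPM (Ccl12), 0.445 CPM (Cxcl3), 0.325 CPM (Ccl5), 0.26 CPM (Ccl17) and 0.0557 CPM (Cxcl17), all in KPC at day 26. For Ccl22 (0.395 CPM) and Cxcl11 (0.0721 CPM) it was KPC at day 14, for Xcl1 (0.309 CPM) KPC at day 21, and for Ccl20 (0.0242 CPM) the controls of day 26.

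Most signalling receptors for these ligands were too low to test in the same libraries, while the atypical receptor Ackr3 was abundant. Of 19 signalling chemokine receptors 3, 4 and 3 passed the filter at days 14, 21 and 26. Cx3cr1, the receptor of Cx3cl1, fell in KPC at day 14, from 3.32, 2.07 and 2.25 CPM to 0.454, 0.247, 0 and 0.239 CPM (log2 -3.31 ± 0.64, adjusted p 0.0301), and was lower in controls of day 21 (0.197 to 0.441 CPM) and day 26 (0.121 to 0.435 CPM) than in those of day 14 (-3.01 ± 0.56 and -3.03 ± 0.51). Cxcr4, the receptor of Cxcl12, rose in KPC at day 21 from 0.591, 0.755 and 0.241 CPM to 4.23, 2.55 and 2.28 CPM (log2 2.51 ± 0.63, adjusted p 0.0226), and KPC replicate 1, the highest of them, also had the most Ptprc of its group (5.42 CPM). Of 5 atypical receptors, which take up ligand without signalling through G proteins, Ackr3 binds CXCL12 and lay at 788 to 1350.3 CPM in controls, and at 368, 374 and 908 CPM in KPC of day 26. In controls Ackr2 was higher at days 21 and 26 than at day 14 (0.54 ± 0.12 and 0.68 ± 0.12), and Ackr3 at day 26 (0.39 ± 0.11). The KPC effect differed between days for Cx3cr1 (day 21 minus day 14, 5.15 ± 1.08, and day 26 minus day 14, 6.02 ± 1.03) and for Ackr3 (day 26 minus day 14, -1.12 ± 0.33). Ackr1 fell at day 14 (log2 -0.56 ± 0.12, adjusted p 0.0356) and Ccrl2 rose at day 21 (log2 1.22 ± 0.33, adjusted p 0.032). At day 26 edgeR called 0 of 3 signalling and 0 of 5 atypical receptors. At an unadjusted p under 0.05, 2 were higher and 1 lower, where 20.3% of all genes were higher and 13.9% lower.

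Genes of the pathways that drive ligand transcription were counted from a list of 18 NF-κB, interferon and cytokine receptor genes. At day 14 edgeR called 0 of 18 (1 higher and 4 lower at an unadjusted p under 0.05, beside the 7.8% and 6.47% of all genes given above). At day 21, 11 rose and 0 fell, where 6.38% of all genes were called higher and 6.11% lower. Among them were Nfkbia (log2 1.76 ± 0.11, adjusted p 6.76e-06) and Tnfaip3 (log2 1.98 ± 0.14, adjusted p 1.52e-05), which encode brakes on NF-κB that it induces itself, Nfkbiz (log2 2.18 ± 0.15, adjusted p 1.49e-05), and Zfp36 (log2 1.98 ± 0.13, adjusted p 6.78e-06), whose protein destabilises cytokine messages. At day 26 edgeR called 0 of 18, with 10 higher and 1 lower at an unadjusted p under 0.05, where 20.3% of all genes were higher and 13.9% lower. Among controls these genes also differed between days. Nfkbia lay at 285, 198 and 254 CPM at day 14, 134, 111 and 113 CPM at day 21 and 415, 542, 324 and 445 CPM at day 26, so that its lowest control group was that of day 21, as it was for Ccl2, Ccl7, Cxcl1 and Cxcl10. Controls of day 21 had 5 of 18 lower than those of day 14, Nfkbia, Nfkbiz, Tnfaip3, Tlr4 and Il1r1, and Il6st higher, where 13.5% of all genes were called lower and 9.92% higher. Controls of day 26 had 4 of 18 higher than those of day 21 (Nfkbia, Nfkbiz, Tnfaip3 and Zfp36), where 0.388% of all genes were called higher. Against day 14 they had 3 lower, Il1r1 and Tlr4 first by p, and 2 higher, Zfp36 and Nfkbia, where 12.6% of all genes were called lower and 9.7% higher. The KPC effect was higher at day 21 than at day 14 for 2 of the 18 (Nfkbiz and Nfkbia), where 0.537% of all genes were called higher. At day 26 it was higher than at day 14 for 9, with Il6ra, Rela, Myd88 and Nfkbiz first by p, and lower for 1, where 9.6% of all genes were called higher and 4.72% lower. Of the macrophage markers Cd68 was called in that contrast (2.67 ± 0.66), a value that includes KPC replicate 1 of day 26. Whether these genes bear on the ligands was not tested.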

How the data were processed

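The authors deposited raw counts per gene symbol in 1 table per day, and all values are whole numbers. The submitters' processing notes name build mm10 and the tools STAR, Bowtie, bcl2fastq 2.20, R 4.2.1 and DESeq2 1.36.0. Which program counted reads, against which annotation and with which strand setting was not stated. Exons of Cxcl10, Cxcl16, Ccl25 and Ccl27a overlap another gene on the opposite strand.

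Each day's KPC libraries were compared with its controls by edgeR 4.0.16 in R 4.3.3 (TMM, filterByExpr at 10 counts and a total of 15, robust quasi-likelihood fit, 2-sided test), with Benjamini-Hochberg adjustment over all genes tested and a threshold of 0.05. The 10 controls were fitted together for comparisons between days, and all 20 libraries for differences of the KPC effect. Standard errors are the absolute log2 fold change over the square root of F. CPM values use 1 TMM scaling of all 20 libraries. DESeq2 1.42.0 and limma 3.58.1 were alternatives. On simulated counts, genes changed 2-fold and 4-fold were recovered at 84% and 97% for day 14 (12973 genes), 69% and 96% for day 21 (12804 genes), 36% and 87% for day 26 (12816 genes), 87% and 97% for controls of day 21 against day 14 (13215 genes) and 34% and 82% for the difference of day 21 minus day 14 (13615 genes), and 5.38% to 7.94% of calls were of unchanged genes. The changed genes, 100 for each fold, were drawn only from genes above a minimum expected count. These rates therefore need not hold for scarce ligands. Libraries of a group were simulated from 1 mean per gene, with no library set apart across many genes as KPC replicate 1 of day 26 was.

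The labels call the libraries biological replicates without naming animals, so p-values measure the spread between these libraries. The members and lists were chosen with earlier results of these data known. Every expressed member is named, and values in each library are given for called members and for the 6 with the highest mean. Of the other lists, called members are named, up to 4 per list and comparison by smallest p.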

Additional observations from a re-analysis of the deposited data

Results flagged for a closer look

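For 8 ligand results the KPC effect differed between days by a contrast in the fit of all 20 libraries. From day 14 to day 21 the effect was higher by 3.37 (log2) for Ccl7, 4.24 for Cxcl13 and 1.05 for Cxcl12. From day 14 to day 26 it was higher by 2.70 for Ccl2, 2.44 for Ccl7, 1.97 for Cxcl1 and 4.10 for Cxcl13, and for Cxcl16 the difference was -1.63. The values for day 26 include KPC replicate 1 of that day, without which fewer members were called.

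In groups of 4 libraries, 1 library stood far from the other 3 in 7 of 42 groups checked. In 2 of these, both of Ccl3, the other 3 libraries were at 0, so that any count stands apart. Of the 40 groups with more than 1 library above 0, 5 remain. The rule picks about 1 in 20 when values are independent and normally spread, which CPM of several genes in the same libraries need not be. At day 14, KPC replicate 3 was low for Ccl2 (11.5 CPM, the others 18.2 to 19.1) and for Ccl7 (11.9 CPM, the others 21.5 to 22.2) and high for Ccl4 (0.373 CPM, the others at most 0.0454). For Ccl4 that group held 6 counts in all. Control replicate 4 of day 26, whose code differs from those of the other 3 controls, was high for Cxcl16 (32.1 CPM, the others 26.9 to 27.6) and Cxcl13 (73.7 CPM, the others 39.4 to 44.0). Ccl3 was above 0 in 1 library of 2 groups, at 0.0994 CPM in control replicate 2 of day 26 and 0.0988 CPM in KPC replicate 2 of day 14, both below the level that 3 counts give.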

How the results depend on the processing

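Scaling by library size alone and no filter on low counts, where run, left every count of called members within 1.5 times its value. At day 14, where 3 members were called, DESeq2 called 5, limma-voom 6, the fit of all 20 libraries 0 and leaving out single libraries 2 to 4. At day 21 (9 called) the fit of all 20 libraries called 4, and leaving out single libraries gave 4 to 9. At day 26 (0 called) DESeq2 called 4, limma-voom 4, the fit of all 20 libraries 7, the libraries that share a code number 7, and leaving out single libraries gave 0 to 10. The set that shares a code number lacks KPC replicate 3 of day 26, with the limit given above. In the fit of all 20 libraries the controls of day 21 against day 14 had 4 called, and those of day 26 had 0 against day 14 and 0 against day 21. Leaving out single libraries gave 6 to 9, 0 to 2 and 1 to 5 for these. For the difference of the KPC effect, day 21 minus day 14 (3 called), DESeq2 called 7, and leaving out libraries gave 1 to 8. Day 26 minus day 14 (5 called) gave 9 in DESeq2 and 1 to 12, and day 26 minus day 21 (0 called) gave 0 to 3. Replicate numbers did not pair the libraries (correlations of same-numbered deviations -0.115 to 0.147, best with their own number in 3 of 9 pairs). With the replicate number as a block, 5, 9 and 0 members were called at days 14, 21 and 26 (4, 9 and 0 in the same libraries without the block, a check chosen after seeing the data), 8, 2 and 5 among controls, and 4, 3 and 0 for the differences in the order given. Some log2 values changed sign when single libraries were left out. Ccl2 at day 21 ran from -0.0218 (without control replicate 3) to 0.23, Ccl2 at day 26 from -0.60 (without KPC replicate 1) to 1.359 and Ccl7 at day 26 from -0.00446 (without KPC replicate 1) to 1.51. For controls of day 26 against day 14, Ccl2 ran from -0.32 to 0.0372 (without day 14 replicate 1), and Ccl7 from -0.27 to 0.0566, above 0 without replicate 1 or 3 of either day. The causes were not tested. Expressed members numbered 23 at a threshold of 0.5 CPM and 19 at 2 CPM. Below about 0.232 CPM the shallowest library cannot tell a level from 0.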
